A study of Mus musculus with 11 samples.

Results

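The genes described here are Tex101, Ly6k, Gml, Hemt1 and Dpep3, which encode surface proteins of male germ cells. They were taken by gene symbol, 5 of the 20389 rows of the table of unique molecular identifiers (UMIs, tags that mark original RNA molecules), and were followed over germ cells ordered from spermatogonia to late pachytene. They were selected on their UMI levels over these same stages, in earlier results of these data, so the levels are given as a description and no test is made on them. The count table lists Hemt1 under that symbol, and current annotation calls it Gml2.

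Single testis cells from adult Dazl-GFP mice, in which green fluorescent protein marks germ cells, were sorted alive and GFP-positive into wells and their RNA 3' ends were counted. The replicates are 3 untreated mice, so every comparison is between stages of germ cell development within animals. Mouse 1 was measured with CEL-Seq1 in 8 index-sorted libraries (plates 3 and 5), mouse 2 with CEL-Seq2 in 1 index-sorted library (plate 6), and mouse 3 with CEL-Seq2 in 1 gate-sorted library (plate 8) and 1 index-sorted library (plate 10). Protocol and mouse cannot be told apart.

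Of 1920 wells, 1448 held at least 1000 UMIs (545, 321 and 582 in mice 1, 2 and 3) and 1239 of them fell into 13 stages. All wells together held 16682671, 5866174 and 18032562 UMIs in the 3 mice. A Dazl UMI was seen in 98.4%, 98.8% and 95.9% of the kept wells, and a UMI of the eGFP row in 3.30%, 6.23% and 3.26%. The stages were built without the 5 genes, their neighbours, the gene lists below or the X chromosome, and were named from markers. Stage 1 was like undifferentiated spermatogonia, stages 2 and 3 like differentiating spermatogonia, stages 5 and 6 like preleptotene, stages 7 to 10 like leptotene and zygotene, and stages 11 to 13 like pachytene; stage 4 was not named, because Prm1 led it. X chromosome UMIs stood at 2.55 ± 0.25 per 100 autosomal UMIs (SD, n = 3) at stage 1 and at 0.35 ± 0.09 at stage 10, the first stage where the X share was under 50% of that at stage 1. All levels below are UMIs per 1000000 autosomal UMIs (CPM) unless another scale is named. The pachytene markers summed to 1369 ± 439 CPM at stage 9 and 3634 ± 968 at stage 10. The leptotene and zygotene markers summed to 13914 and 10296 CPM. Stage 10 thus kept its marker name although its X share had fallen and its pachytene markers had risen. Where zygotene ends and pachytene begins was not tested. Median UMIs per cell were taken in each mouse and averaged over mice. They were 27078 in stage 1, 6873 in stage 8, 16526 in stage 10 and 83982 in stage 13. A CPM is thus a share of the cell's RNA and not an amount per cell. Errors are SD over 3 mice unless SE is written.

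TEX101 is a glycoprotein of the Ly6/uPAR family, held on the germ cell surface by a glycosylphosphatidylinositol (GPI) anchor. It binds LY6K, another member of that family, and DPEP3, a GPI-anchored membrane dipeptidase, and sperm of mice lacking TEX101 or LY6K do not carry mature ADAM3, a surface protein that sperm need to pass into the oviduct. Gml and Hemt1 encode further GPI-anchored Ly6-like proteins and lie side by side.

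Tex101 (ENSMUSG00000062773) lies on the reverse strand at chr7:24668007-24676675 and Dpep3 on the reverse strand at chr8:105973513-105979429, both on GRCm38 (GENCODE M21 annotation), the build that mm10 names. The other 3 genes form a group on chromosome 15: Ly6k at chr15:74796874-74799986 (reverse strand), Gml at chr15:74813452-74818815 (reverse strand) and Hemt1 at chr15:74819071-74834871 (forward strand). Gml and Hemt1 start head to head with 255 bases between their spans in that annotation, whereas their RefSeq spans overlap by 1109 bases, and 13465 bases separate Ly6k from Gml. The longest Gml and Hemt1 transcripts aligned over 695 bases at 90.9% identity, with an identical run of 151 bases, so how their reads were divided is uncertain and each gene's separate value should be read with that in mind.

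The promoters of Tex101 and Dpep3 are shown because no promoter sequence of Ly6k, Gml or Hemt1 was at hand. Both are from RefSeq (GRCm38.p6), the 250 bases before the start that RefSeq gives, written 5' to 3' on the gene's strand, Tex101 at chr7:24672051-24672300 and Dpep3 at chr8:105979420-105979669. The RefSeq start of Tex101 lies inside the longer GENCODE span given above, so this window lies within that span, and the Dpep3 window overlaps the edge of its GENCODE span. Capitals mark CCAAT, on either strand, in the first and TGACG in the second.
Tex101 promoter: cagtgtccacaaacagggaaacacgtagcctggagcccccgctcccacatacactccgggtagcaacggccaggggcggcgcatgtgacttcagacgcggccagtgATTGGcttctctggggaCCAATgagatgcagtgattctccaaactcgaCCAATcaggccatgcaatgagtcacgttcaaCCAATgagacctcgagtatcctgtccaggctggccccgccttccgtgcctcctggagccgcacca
Dpep3 promoter: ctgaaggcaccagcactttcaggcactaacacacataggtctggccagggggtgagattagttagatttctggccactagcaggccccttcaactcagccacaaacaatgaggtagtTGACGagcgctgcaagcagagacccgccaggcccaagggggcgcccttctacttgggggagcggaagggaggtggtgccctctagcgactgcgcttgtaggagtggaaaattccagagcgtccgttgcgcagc
The Tex101 window held 4 CCAAT matches over both strands, a number that 0.84% of 32841 promoters of the same length reached; 33.9% had at least 1. The Dpep3 window held no CCAAT and 1 TGACG, which 17.8% of promoters had. AACNG was in both windows, with 2 matches for Tex101 and 1 for Dpep3, and in 74.2% of promoters. CNCCTCAG (6.42% of promoters) and AGGTCA (14.03% of promoters) were in neither window. A match is a description of the letters in these windows.

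Tex101, the named surface glycoprotein, already gave UMIs in the spermatogonia-like stages and was high by preleptotene. Stage 1 held 116, 157 and 134 CPM in mice 1, 2 and 3, an order of mice kept for the values that follow. Wells with under 1000 UMIs, which are in no stage, held a mean of 525.8 CPM. Whether RNA from other cells was part of the stage 1 level was not tested. Stage 5 held 414, 685 and 518 CPM and stage 6 held 1048, 1166 and 1181. Every mouse was higher at stage 6 than at stage 4 (166, 429 and 159 CPM), without overlap. Stages 7 to 10 formed a plateau whose ranges overlapped: stage 7 held 1856, 1633 and 1456 CPM and stage 10 held 1484, 2139 and 1742. The mean was highest in stage 10 (1788 ± 330), but single mice peaked in stages 7, 10 and 8. Stage 13 held 592, 578 and 560.0 CPM, below every mouse in stage 10. Tex101 reached 50% of its highest level at stage 6 in each of the 3 mice.

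Ly6k, the partner protein, followed with a peak at stage 10. Stage 1 held 18.8, 27.8 and 44.7 CPM, stage 6 held 377, 466 and 453, and stage 9 held 785, 794 and 706. Every mouse was higher in stage 10 (1078, 1145 and 914 CPM) than any was in stage 9. Stage 13 held 415, 426 and 332 CPM, still more than stage 5 in any mouse (103, 178 and 158). Ly6k reached 50% of its highest level at stages 7, 9 and 8 in mice 1, 2 and 3.

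Gml stayed low through preleptotene and turned up between stages 8 and 9. Stage 1 held 17.1, 21.6 and 24.3 CPM, stage 6 held 27.8, 48.6 and 70.7, and stage 8 held 107, 75.9 and 116. The next stage held 510, 382 and 465 CPM, and stage 10 held 883, 854 and 679, so neither step overlapped between stages. Stage 11 held less in every mouse (563, 505 and 486 CPM), and stage 13 held 250, 151 and 160. Gml reached 50% of its highest level in stages 9, 10 and 9, after Tex101 in each mouse.

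Hemt1, head to head with Gml, likewise turned up between stages 8 and 9. Its mean at stage 13 (71.7 CPM) was back near that of stage 8 (71.8). Gml, in contrast, stood higher at stage 13 than at stage 8 in every mouse. Stage 1 held 8.54, 6.17 and 15.3 CPM, stage 8 held 75.1, 92.7 and 47.6, and stage 9 held 222, 195 and 251. The highest stage was stage 10, with 489, 393 and 404 CPM, and stage 13 held 99.5, 52.1 and 63.7 CPM. It reached 50% of its highest level in stages 10, 10 and 9. In mouse 1 at stage 4 no Hemt1 UMI was seen among 774859 autosomal UMIs, which allows up to 3.87 CPM. There were 53.7 ± 6.9 Hemt1 UMIs per 100 Gml UMIs (SD, n = 3) in stage 10 and 38.0 ± 3.0 in stage 13.

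Dpep3, the dipeptidase that binds TEX101, went up together with Tex101 and had its highest mean in stage 7 (943 ± 201 CPM). Stage 1 held 49.5, 95.6 and 101 CPM, stage 5 held 239, 499 and 504, and stage 6 held 484, 777 and 1174. Stage 7 held 744, 938 and 1146 CPM, stage 10 held 544, 854 and 1041, and stage 13 held 448, 657 and 783. Mouse 1 was the lowest at each of these stages, and the ranges of Dpep3 overlapped between every pair of neighbours in the order of its levels.

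Dpep3 thus differed from the other 4 in the fall: its ratio of stage 13 to stage 10 was 0.781 ± 0.037 (SD, n = 3), against 0.330 for Tex101, 0.373 for Ly6k, 0.232 for Gml and 0.165 for Hemt1. These ratios are on CPM. From stage 1 to stage 10 the ratio was 13.1 ± 0.4 for Tex101 and 10.1 ± 1.0 for Dpep3. It was 39.7 ± 18.5 for Ly6k, 39.7 ± 11.8 for Gml and 49.1 ± 19.97 for Hemt1. All 5 genes passed the filter on low counts, and in all 5 the 3 mice were higher at stage 10 than at stage 1 without overlap, as they were in 24.3% of the 11089 genes tested. From stage 9 to 10 the ranges separated upward for Ly6k, Gml and Hemt1, as in 15.9% of genes; from stage 8 to 9 they separated upward for the same 3 genes, as in 9.77%. Tex101, Ly6k and Dpep3 separated upward from stage 4 to 6, as did 14.6% of genes. All but Dpep3 separated downward from stage 10 to 13, as did 25.1% of genes. These shares show how common such patterns were, and since the genes were chosen for their pattern nothing further is read from them.

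**Figure D1:**
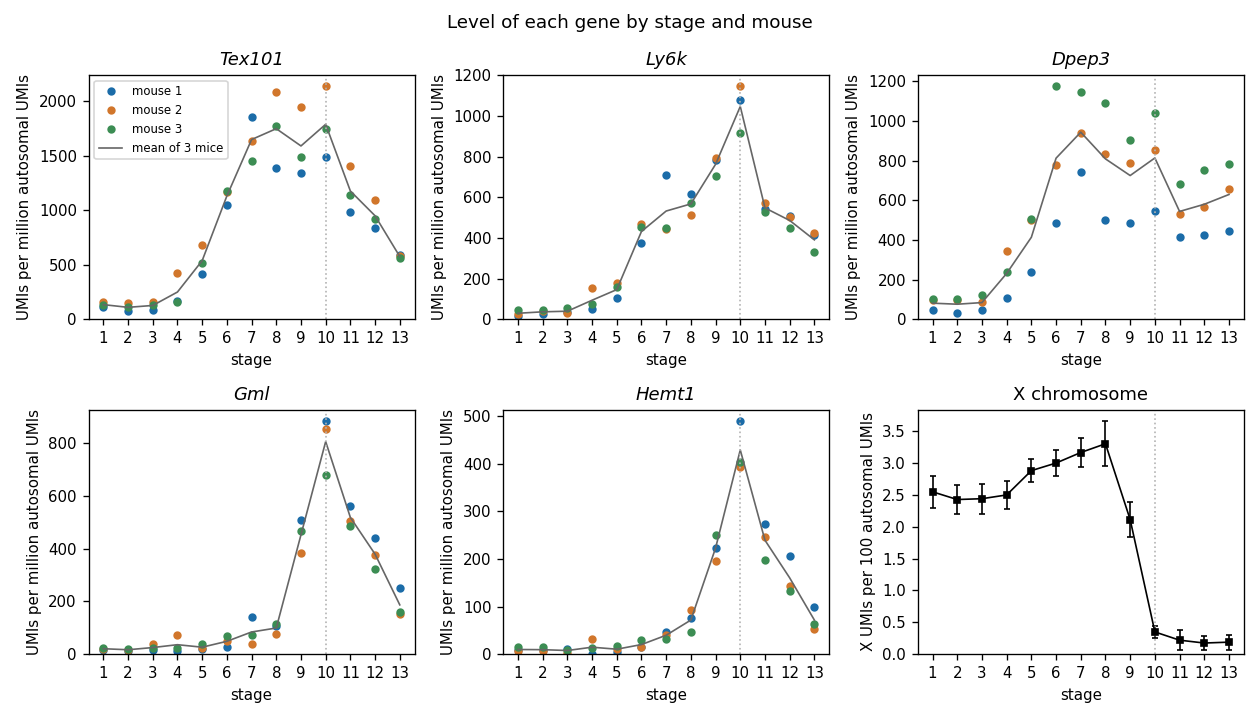
Levels of the 5 genes by stage in UMIs per 1000000 autosomal UMIs (y axis from 0, x axis stage), one dot for each mouse and a line for the mean, with X UMIs per 100 autosomal UMIs in the last panel and a dotted line at stage 10. Tex101 and Dpep3 are high from stage 6 on, whereas Gml and Hemt1 go up at stages 9 and 10. X UMIs per 100 autosomal UMIs are 2.11 at stage 9 and 0.35 at stage 10.

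The make-up of the 5 genes' RNA changed with the stages. In means of 3 mice, Tex101 gave 49.4% of their summed UMIs in stage 1, 47.1% in stage 6 and 52.9% in stage 8. It gave 36.4% in stage 10 and 31.1% in stage 13. Gml gave 7.58%, 1.94% and 16.6% in stages 1, 6 and 10, and Dpep3 gave 28.7%, 32.2% and 16.6%, then 33.8% in stage 13. The 5 genes together summed to 279 ± 60, 2445 ± 479, 4881 ± 462 and 1855 ± 48 CPM in stages 1, 6, 10 and 13. There were 45.4 Dpep3 UMIs per 100 Tex101 UMIs in stage 10 and 110 ± 32 in stage 13.

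**Figure D2:**
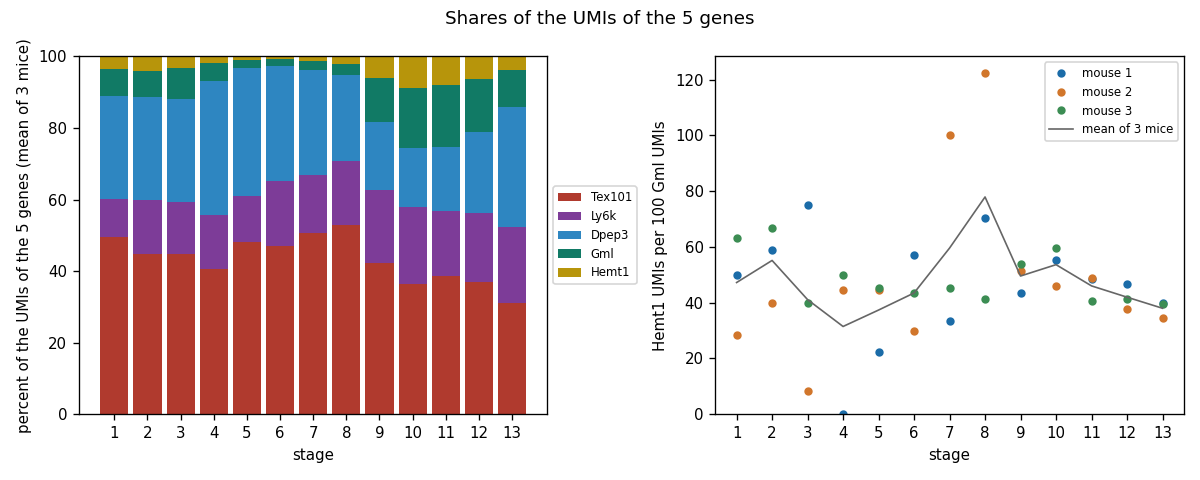
Left, each gene's percent of the summed UMIs of the 5 genes at each stage (stacked bars, mean of 3 mice); right, Hemt1 UMIs per 100 Gml UMIs, one dot for each mouse and a line for the mean. Tex101 is 49.4% at stage 1, 52.9% at stage 8 and 31.1% at stage 13, where Dpep3 is 33.8%. The Hemt1 to Gml ratio is 53.7 at stage 10 and 38.0 at stage 13.

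On the scale of UMIs per cell the late fall was not seen for every gene. In stages 1, 10 and 13 Tex101 gave 3.93, 38.1 and 54.0 UMIs a cell, with its highest value, 65.2, in stage 12. Ly6k gave 0.876, 22.4 and 36.0 in these stages and Dpep3 2.32, 17.8 and 59.9. Gml and Hemt1 had their highest values at stage 11, 26.8 and 12.3 UMIs a cell, and stood at 17.6 and 6.81 at stage 13. The ratio of stage 13 to stage 10 per cell was 1.42 ± 0.24 for Tex101, 1.61 ± 0.04 for Ly6k, 0.996 ± 0.21 for Gml, 0.705 ± 0.13 for Hemt1 and 3.36 ± 0.06 for Dpep3. For Tex101, Ly6k and Dpep3 it was above 1 in every mouse, while their CPM fell in every mouse between these stages. The CPM ratios of Dpep3 were 0.822, 0.769 and 0.752 in mice 1, 2 and 3, although its ranges over the mice overlapped. The peak in stage 10 is one of CPM, the share of RNA.

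**Figure D3:**
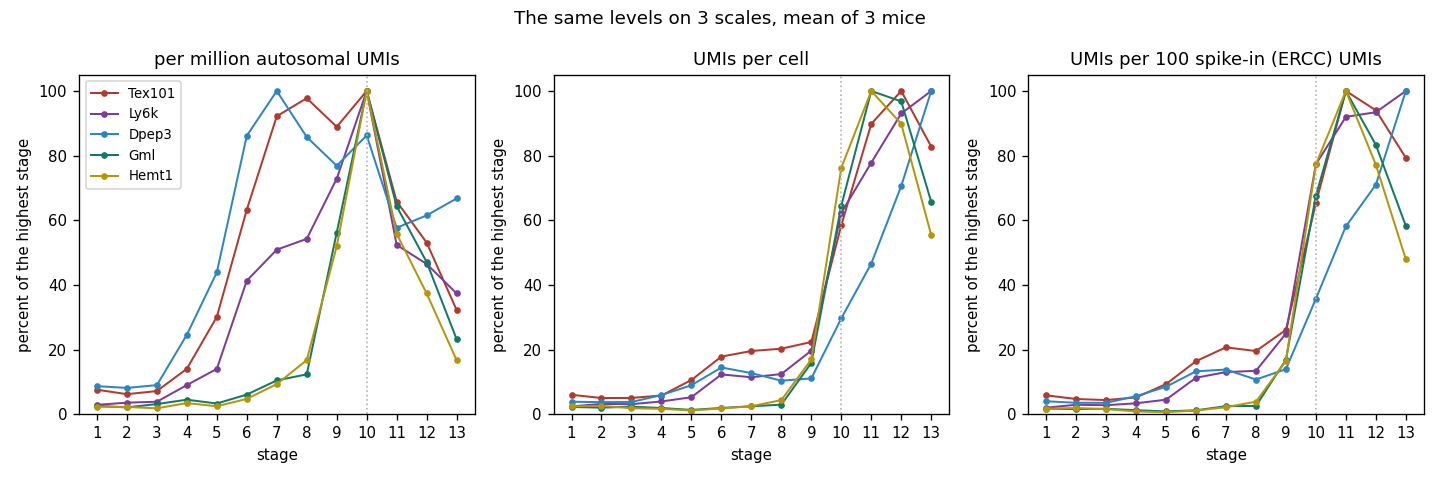
The 5 genes on 3 scales by stage, each as percent of its highest stage (mean of 3 mice): UMIs per 1000000 autosomal UMIs, UMIs per cell and UMIs per 100 ERCC spike-in UMIs. Tex101, Ly6k, Gml and Hemt1 peak at stage 10 and Dpep3 at stage 7 on the first scale, and all 5 peak at stage 11 or later on the other scales.

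Within stages the cells varied. The median cell held 0 Gml UMIs per 10000 at every stage through stage 8, 3.24 at stage 9 and 8.13 at stage 10; Hemt1 held 0 through stage 8, 1.54 at stage 9 and 3.87 at stage 10. The share of cells with a Gml UMI, with every cell thinned to 2000 UMIs, was 4.46 ± 3.89% (SD, n = 3) in stage 1, and in stage 8 it was 18.5%, 15% and 35.5% in the 3 mice. The thinned share was 50.8 ± 0.71% in stage 9, 71.0 ± 13.04% in stage 10 and 25.5 ± 15.5% in stage 13. Unthinned, the shares at stages 1, 8, 9, 10 and 13 were 36.4%, 41.0%, 75.3%, 92.9% and 99.1%. Thinning left out 27 of 1239 cells, 8 of them from stage 10. Tex101 was seen in 20.3%, 93.1% and 58.3% of thinned cells in stages 1, 10 and 13, and Hemt1 in 3.70%, 53.4% and 2.04%. No cell class known to lack these genes was at hand to measure free RNA in the wells. The 8 spermatid marker genes, which should be low in these cells, summed to 10.3 to 60.0 CPM over the mice in stage 1, 374 to 2038 in stage 4, 32.4 to 238 in stage 10 and 46.3 to 63.8 in stage 13; their part in the levels was not tested. Among 88 cells of stage 10 with at least 10000 UMIs, thinned to that number, Tex101 and Gml had r = 0.517 and the other 9 pairs of the 5 genes had r from 0.113 to 0.357, a description across cells that share libraries. Tex101 and Gml had r = 0.065, -0.01, 0.136 and 0.118 in stages 9, 11, 12 and 13, from 56, 90, 109 and 97 cells, so the value of stage 10 was not seen in the other 4 stages.

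**Figure D4:**
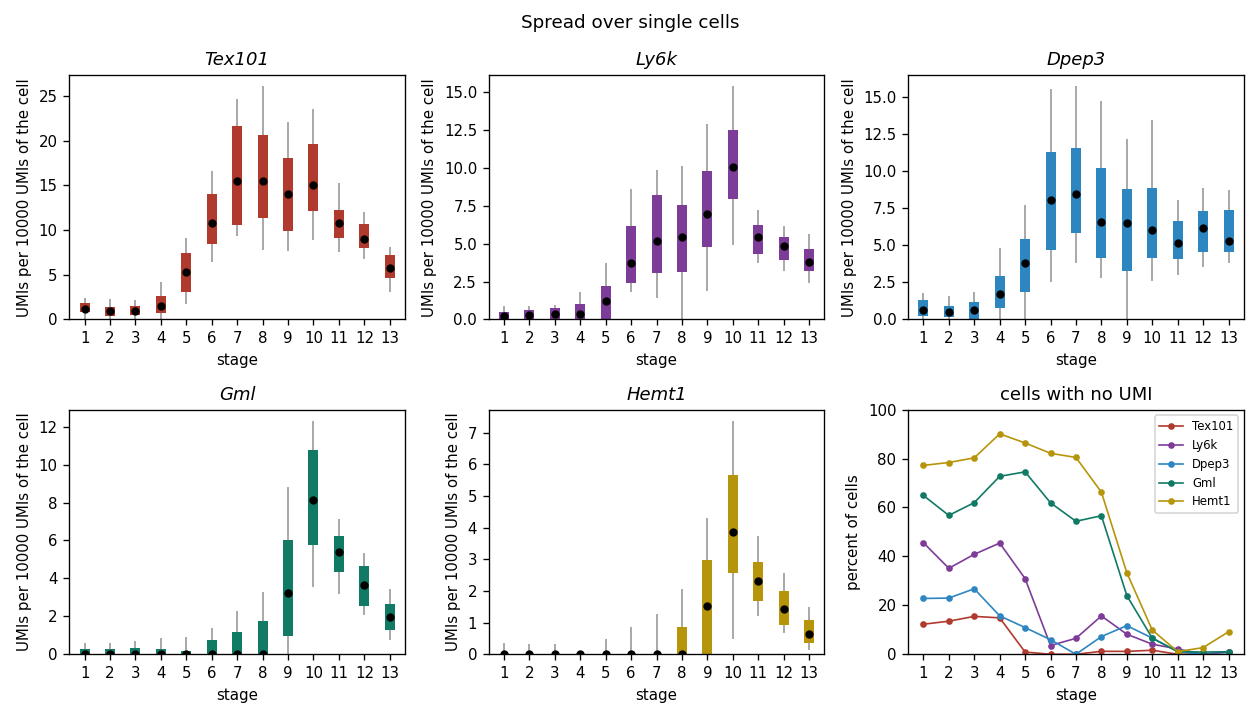
Each gene in single cells by stage, in UMIs per 10000 UMIs of the cell (y axis, with stage on the x axis). Dots are medians, thick bars run from the 25th to the 75th percentile and thin lines from the 10th to the 90th, with the percent of cells holding no UMI of each gene in the last panel. Gml and Hemt1 have a median of 0 through stage 8, and most cells hold a UMI of each gene at stage 10.

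The genes whose levels ran most like these were sought over the 39 mouse-by-stage values of log2(CPM + 10), centred within mouse, among all 11089 genes tested; the values share cells and libraries, so r is a description. Tex101 was most like Sycp2 (r = 0.970), which encodes a protein of the synaptonemal complex, then Ly6k (0.967), Dpep3 (0.965), the RNA-binding protein gene Qk (0.956) and Hormad1 (0.954), which encodes a protein of meiotic chromosome axes. Ly6k was most like Hormad1 (0.978). Gml was most like Hemt1 (0.973), Fam216a (0.964), 1700020N01Rik (0.956), Cntd1 (0.943), a gene of crossover formation, and Kctd19 (0.942). Hemt1 was next most like Fam216a (0.960). Gml and Tex101 had r = 0.734 and Hemt1 and Dpep3 r = 0.667. Ly6k lay between, with r = 0.967 to Tex101 and 0.833 to Gml. Stage 10 is where Gml and Hemt1 are among the 10 leading genes.

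The GPI anchor that holds these proteins to the membrane is made by its own enzymes. Of 37 listed genes of anchor synthesis, remodelling and export, 27 were tested, of which 14 were higher and 3 lower at stage 10 than at stage 1; over all genes 28.9% were higher and 37.7% lower, 66.6% in either direction (edgeR's quasi-likelihood test with Benjamini-Hochberg adjustment, adjusted p under 0.05). The median log2 difference of the list was 0.75, beside -0.20 over all genes. Pigk, the catalytic subunit of the enzyme that attaches the anchor, stood at 29.0, 33.9 and 52.4 CPM in mice 1, 2 and 3 at stage 1 and 217, 221 and 275 at stage 10, a log2 difference of 2.67 ± 0.18 (SE; edgeR adjusted p = 2.49e-16). Pgap1, which removes an acyl chain from the finished anchor, stood at 68.3, 58.6 and 70.2 CPM at stage 1. It stood at 14.5, 0 and 7.17 at stage 10, a fall of 2.82 ± 0.48 on the log2 scale (SE, edgeR adjusted p = 2.78e-06). The 0 in mouse 2 allows up to 8.08 CPM. Between stages 10 and 13, 4 anchor genes rose and 9 fell, while 29.7% of all genes rose and 18.7% fell, 48.4% in either direction. From stage 1 to 13, 13 anchor genes rose and 7 fell, beside 36.0% and 38.8% of all genes, 74.8% in either direction. These differences are on CPM, the share of RNA.

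More genes of ADAM3 maturation were called higher between stages 10 and 13 than between stages 1 and 10. Of 19 listed genes, 18 were in the table and 10 were tested; 4 rose and 1 fell from stage 1 to 10, beside 28.9% and 37.7% of all genes (edgeR). From stage 10 to 13, 7 rose and 0 fell, beside 29.7% and 18.7% of all genes, with a median log2 difference of 1.58 beside 0.14 over all genes. Adam2, Clgn, Cmtm2a and Lypd4 rose in both steps, and Adam3, Adam1b and Cmtm2b in the later step. Ace, Tpst2 and Pgap1 were not called in the later step. Both Lypd4 calls were lost in a fit without the mouse as block (edgeR adjusted p = 0.0728 and 0.0901). Adam3 held 5.13, 3.08 and 12.8 CPM in stage 1, then 7.27, 5.39 and 27.5 in stage 10 and 177, 195 and 275 in stage 13. Its log2 difference from stage 1 to 10 was 0.94 ± 0.56 (SE; edgeR adjusted p = 0.135), with overlapping ranges. The rise from stage 10 to 13 was 4.30 ± 0.30 on the log2 scale (SE; edgeR adjusted p = 1.45e-15). Its steep rise thus came in stages where Tex101, Ly6k, Gml and Hemt1 were past their highest CPM. Adam2, the fertilin beta subunit, held 32.1, 367 and 771 CPM in stages 1, 10 and 13 (means, n = 3), with no overlap between the 3 ranges. Clgn, the chaperone calmegin, held 52.1 ± 24.7, 452 ± 42 and 555 ± 73. Their log2 rises by stage 10 were 3.65 ± 0.29 and 3.23 ± 0.22 (SE, edgeR adjusted p = 4.96e-14 and 8.98e-16).

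**Figure D5:**
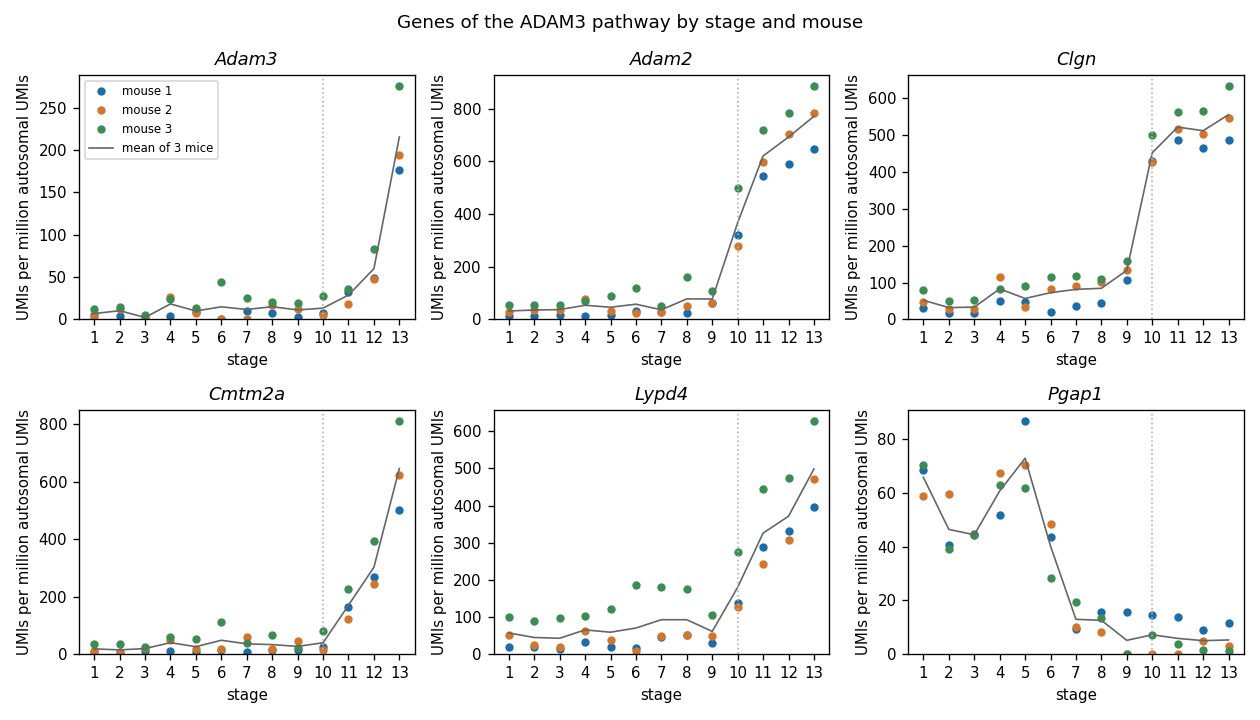
Levels of Adam3, Adam2, Clgn, Cmtm2a, Lypd4 and Pgap1 by stage in UMIs per 1000000 autosomal UMIs, one dot for each mouse and a line for the mean, with a dotted line at stage 10. Adam3 stands at 13.4 at stage 10 and 215 at stage 13, whereas Pgap1 falls from 65.7 at stage 1 to 5.31 at stage 13.

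Few relatives of the 5 genes were measured in these cells. Of 42 listed Ly6/uPAR genes beside the members, 30 were in the table and 3 were tested, Lypd4, Cd177 and Ly6g6e. Lypd4, a sperm protein of this family, held mean levels of 57.4, 180 and 498 CPM in stages 1, 10 and 13. It rose by 1.86 ± 0.31 on the log2 scale from stage 1 to 10 (SE, edgeR adjusted p = 1.69e-06). From stage 1 to 13 it rose by 3.66 ± 0.29 (SE, edgeR adjusted p = 1.47e-14). In a fit without the mouse as block the call from stage 1 to 10 was lost (edgeR adjusted p = 0.0728). So was the call from stage 10 to 13 (edgeR adjusted p = 0.0901). Ly6g6e fell by 5.84 ± 0.69 (SE) on the log2 scale from stage 1 to 13, from 41.9 to 0.73 CPM (edgeR adjusted p = 2.17e-09). Cd177 rested on mouse 1, which stood at 163 CPM at stage 10 beside 13.5 and 17.9 in mice 2 and 3, and without mouse 1 it was not tested. The 10 relatives within 500 kb of the chromosome 15 group gave 356 UMIs together over 1239 cells. The group itself gave 15996 UMIs for Ly6k, 10996 for Gml and 5038 for Hemt1. All 5 genes, with Tex101 and Dpep3 on other chromosomes, gave 82811. Dpep2, 5514 bases from Dpep3, gave 8 UMIs and Dpep1 gave 2.

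Genes around the members were also counted. Of 50 tested genes within 500 kb of a member, 20 (40.0%) were higher and 19 (38.0%) lower at stage 10 than at stage 1 (edgeR), beside 28.9% and 37.7% of all genes, with a median log2 difference of 0.05 beside -0.20 over all genes. Around Tex101, 9 of 18 tested were higher and 7 lower; on chromosome 15, 2 of 7 were higher and 2 lower; around Dpep3, 9 of 25 were higher and 10 lower. Mroh4, 160520 bases from Ly6k, held 15.4, 21.6 and 44.7 CPM in stage 1 and 334, 412 and 601 in stage 10, a log2 rise of 4.11 ± 0.24 (SE; edgeR adjusted p = 4.59e-18), but it stood higher still at stage 13 (750.3 ± 155) and its r with Gml was 0.792. Dmrtc2, 193381 bases from Tex101, rose by 3.89 ± 0.22 (SE, edgeR adjusted p = 1.55e-18), from 38.4 to 531 CPM. It held 340.3 in stage 13. Psmb10, a proteasome subunit gene near Dpep3, fell by 5.19 ± 0.36 (SE, edgeR adjusted p = 2.85e-15), from 187 to 6.39 CPM.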

How the data were processed

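The authors deposited 3 tables: UMI counts, read counts and transcripts (estimated counts, rounded here). In mice 2 and 3, 100.0% of the transcripts values above 0 followed a correction of the UMIs for collisions. In mouse 1 only 2 of 768 wells stood at the same position in the UMI and transcripts tables, so its wells were matched 1 to 1 by profile (lowest r 0.989), and the correction was not shown there. BWA 0.7.10 and mm10 are named, per the submitters' processing notes; the annotation and counting tool are not given in the sources used here. The authors deposited raw counts, and CPM was computed here. Each well was meant to hold 1 sorted cell, so doublets were not called. Wells with at least 1000 UMIs were aligned across mice with Seurat 5.3.0 (1500 variable genes of odd-numbered autosomes, without the members, neighbours within 500 kb and list genes; 15 dimensions), clustered with scanpy 1.11.5 (Leiden resolution 1.0) and ordered by diffusion pseudotime; a stage needed at least 10 cells in at least 2 mice. UMIs were summed per mouse and stage (39 sums, 99198 to 4877110 autosomal UMIs). Genes passing filterByExpr (11089) were tested with edgeR 4.0.16 (quasi-likelihood, stage plus mouse as block, Benjamini-Hochberg over all genes; R 4.3.3), tested on simulated data, with DESeq2 1.42.0 as an alternative. The sums of 1 mouse come from the same animal, and their deviations from the stage means correlated at mean r of 0.793, 0.480 and 0.640. The members and lists were chosen with earlier results of these data known. Named genes were the members, up to 3 genes per list, contrast and direction with the largest called fold change, neighbours, the 5 most similar genes of each member and markers. Adjusted p-values rest on the spread of the 39 sums that is left after stage and mouse are fitted. They cover 3 mice only. The 209 kept wells outside the stages were left out.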

Additional observations from a re-analysis of the deposited data

Results flagged for a closer look

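Wells with under 1000 UMIs entered no comparison, and the 5 genes were seen in them too. These were 223, 63 and 186 wells of mice 1, 2 and 3. The mean over mice was 525.8 UMIs per 1000000 autosomal UMIs for Tex101, 334.4 for Ly6k, 282.9 for Gml, 66.7 for Hemt1 and 461.7 for Dpep3. The values rest on few UMIs: Tex101 had 54, 17 and 24 UMIs in the 3 mice, and Hemt1 had 13, 0 and 3. The 0 in mouse 2 is of 30970 autosomal UMIs and allows up to 96.9 UMIs per 1000000.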

How the results depend on the processing

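The peak at stage 10 depended on the scale. On UMIs per ERCC spike-in UMI and per cell, 0 genes peaked at the first stage with a low X share, against 4 on CPM and 2 without alignment of the mice; leaving out 1 mouse gave 3 to 4, since without mouse 2 Tex101 peaked at stage 7. The log2 difference of stage 13 against stage 10 changed sign per ERCC UMI to 0.26 for Tex101, 0.45 for Ly6k and 1.52 for Dpep3, and per cell to 0.49, 0.68 and 1.75, from -1.60, -1.40 and -0.35 on CPM. Of the Ly6/uPAR list, 3 genes were tested and 3 called at stage 13 against stage 1, beside 74.8% of all genes called. The count was 7 by read counts and 9 without the filter on low counts. It was 5 with staging without chromosomes 7 and 15 and 5 with sums of at least 20 cells. A list of 16 genes of other GPI-anchored surface proteins had 2 tested in that comparison, Cd24a and Cd55, and 2 called. The count was 4 by reads, 9 without the filter and 4 with at least 2000 UMIs per well. It was 4 without chromosomes 7 and 15 and 6 with at least 20 cells. Over all 5 lists, stage 13 against stage 10 called 52 genes, 32 by reads, and 48.4% of all genes were called there. Stage 10 against stage 1 called 66.6% of all genes. Such counts show how calls moved with the processing and are not read as results about the lists. Leaving out 1 mouse gave 2 to 4 for the Ly6/uPAR list, 2 to 3 for the surface list, 18 to 19 for anchor synthesis (20 with all mice), 8 to 9 for ADAM3 maturation (8), 33 to 36 for neighbours (38), 47 to 60 for all lists at stage 10 against stage 1 (61) and 40 to 49 for stage 13 against stage 10. With pseudocount 1, 22 of the 25 most similar genes were kept.

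The mouse was the block because the mice differ in protocol. Sums of 1 mouse also deviated together. In a fit without the replicate block, the calls were 3 for Ly6/uPAR, 16 for anchor synthesis, 8 for ADAM3 maturation, 2 for the surface list, 32 for neighbours, 46 for all lists at stage 10 against stage 1, and 30 at stage 13 against stage 10. The number of mice (3), the 4-base UMIs of mouse 1, which understate high counts, and the shared sequence of Gml and Hemt1 limit the precision.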
